A study of Homo sapiens with 15 samples.

Results

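Wild-type HT1080 cells treated with TMP195 were compared with untreated HT1080 cells whose KDAC7 (gene HDAC7) carried H709A. HT1080 is an established human fibrosarcoma line. The 3 wild-type samples received 1 µM TMP195 for 2 days, and the 4 samples of the KDAC7 H709A genotype received no treatment. Members were taken by genotype and treatment label, which gave 7 of the 15 samples of the series, or 7 of its 14 libraries with counts. The other 7 count libraries, 3 of KDAC4 (gene HDAC4) H803A and 4 of KDAC4 H976Y, also untreated, shared the estimate of the spread, and their levels are set beside some results as a description. All cells were grown in the same serum-containing medium, and total RNA depleted of ribosomal RNA was sequenced as paired ends. The labels do not say how the variant was made, whether it is 1 clone or several, whether 1 or both alleles carry it, or whether samples within a group are separate cultures. P-values therefore reflect sample-to-sample spread alone, and this spread could be technical. None of the 15 samples is of untreated wild-type cells. Each difference below sets treatment of wild-type cells against a variant, so treatment and genotype cannot be told apart.

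KDAC7 belongs, with KDAC4, to the class IIa lysine deacetylases. By themselves these enzymes have little activity on acetyl-lysine. They attach to DNA-bound MEF2 proteins and recruit repressor assemblies that contain another deacetylase. TMP195 binds the catalytic pocket of class IIa enzymes and leaves the protein in place. The comparison thus sets a compound that reaches the pockets of the whole class against a residue change in the pocket of 1 member.

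The codon windows show which residue the variant label can refer to, since HDAC7 has transcripts of different lengths. Below are the 63 reference bases on GRCh38 around the codon that H709A numbers in 2 HDAC7 transcripts that encode a histidine there, and around the codon that H803A numbers in HDAC4. Each is written 5′ to 3′ in the sense of the gene, with the histidine codon in capitals.
HDAC7 ENST00000080059: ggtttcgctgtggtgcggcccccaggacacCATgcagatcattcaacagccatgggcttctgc
HDAC4 ENST00000345617: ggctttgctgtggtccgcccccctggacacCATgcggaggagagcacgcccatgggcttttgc
HDAC7 ENST00000427332: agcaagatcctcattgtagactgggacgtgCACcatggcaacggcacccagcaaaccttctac
The first HDAC7 codon lies at chr12:47789543-47789545, in exon 18 of 26 on the minus strand, in a transcript of 991 codons. Its window matches the HDAC4 window (chr2:239087579-239087581, exon 19 of 27, minus strand) at 48 of 63 bases, including the histidine codon cac just before the capitals. The codon of the shorter transcript, of 952 codons, lies at chr12:47788156-47788158 in exon 20 of 26, and its window matches at 20 of 63 bases. The labels do not give the transcript that the number refers to.

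Total counts were 10391409, 9982012, 14627065 and 24297487 in KDAC7 H709A replicates 1 to 4 and 14007405, 14698977 and 12791965 in the TMP195 libraries. The TMP195 libraries resembled each other (r = 0.983 to 0.988 across genes on log2 values), and the KDAC7 H709A libraries did so less (r = 0.851 to 0.980). The library labelled KDAC7 H709A replicate 1 correlated at 0.851 to 0.879 with the others of its label and at 0.936 and 0.938 with KDAC4 H803A replicates 2 and 3. The library labelled KDAC7 H709A replicate 4 correlated at 0.991 with the library labelled KDAC4 H803A replicate 1. Whether these libraries carry the genotype of their labels cannot be settled from the counts, and the mean of KDAC7 H709A is that of the libraries so labelled. Counts of calls are therefore also given without KDAC7 H709A replicates 1 and 4, as are single genes whose call or size changes. The median log2 deviation from the mean of all libraries, in GC-rich minus GC-poor genes, was 0.35, 0.45 and 0.53 with TMP195, 1.19 in KDAC7 H709A replicate 1 and -0.48, -0.95 and -1.11 in replicates 2 to 4. Of 12 fibroblast and fibrosarcoma markers, all had counts in both groups, with a summed level of 7953 to 10000.4 CPM (counts scaled to 1e+06 per library) with TMP195 and 5877 to 9376 CPM with KDAC7 H709A. The epithelial markers together reached 6.22 to 8.83 and 2.47 to 13.8 CPM, with CDH1 and KRT14 at 0 in every library of both groups. Of 8 markers each, 7 endothelial, 4 blood, 6 neural and 4 muscle markers had counts in each group. Their sums were 95 to 105 and 80.4 to 156 CPM for endothelium, 112 to 143 and 69.4 to 261 CPM for blood, 98.4 to 123 and 89.2 to 115 CPM for neural cells, and 17.3 to 18.5 and 11.9 to 40.6 CPM for muscle, TMP195 first. PTPRC, CD3E and HBB of blood, SOX10 and STMN2 of neural cells, ERG of endothelium and MYOD1, MYOG and MYF5 of muscle were at 0 in both groups. The part of these cell types in the results was not tested.

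**Figure D1:**
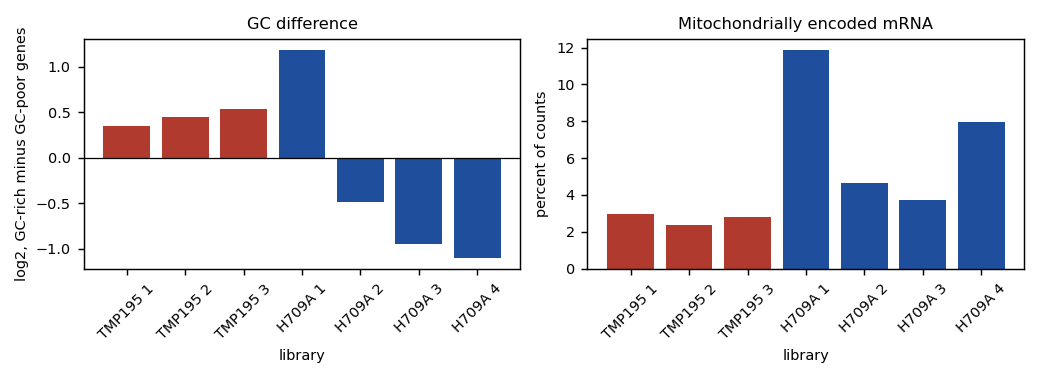
Measures of the 3 TMP195 libraries (red) and the 4 KDAC7 H709A libraries (blue). Left, median log2 deviation from the mean of all libraries in GC-rich genes minus that in GC-poor genes; right, mitochondrially encoded mRNA as a percent of all counts. KDAC7 H709A replicate 1 lies at 1.19 on the left and the others of its group between -1.11 and -0.48, while the TMP195 libraries lie between 0.35 and 0.53.

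Of 17780 genes tested, 353 were higher with TMP195 (1.99% of those tested) and 766 were lower (4.31%), at a Benjamini-Hochberg adjusted p under 0.05 in edgeR's quasi-likelihood test, the threshold for "called", "rose" and "fell" below. With upper-quartile scaling 575 of 1284 calls were higher, or 44.8% in place of 31.5%. Of the 1119 called genes (6.29%), 889 differed by at least 2-fold, 242 higher and 647 lower. The groups did not overlap in 1112 of the called genes, against 24.3% of all genes tested. The calls were made on the same libraries, so this separation is no support apart from the test. Without KDAC7 H709A replicates 1 and 4 there were 1466 calls, 799 of them among the 1119. Without 1 TMP195 library there were 422 to 451, and without KDAC7 H709A replicate 1, 2755. The median log2 fold change over all genes was -0.07. Fold changes are TMP195 minus KDAC7 H709A on the log2 scale, ± SE, and levels are CPM on scaled library sizes, given in replicate order.

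The genes with the smallest p-values among those higher with TMP195 had varied functions. CPT1A (ENSG00000110090, chr11:68754620-68844410 on GRCh38), which carries fatty acids into mitochondria, had 35.5, 35.5 and 31.3 CPM with TMP195 and 9.46, 8.85, 9.95 and 9.60 with KDAC7 H709A. The TMP195 libraries lay above all 4 KDAC7 H709A libraries, which differed little among themselves (log2 fold change 1.85 ± 0.16, adjusted p = 1.68e-05). In bulk RNA, a difference in RNA per cell and a difference in the share of cells that express a gene cannot be told apart, here and below. PTGES (ENSG00000148344, chr9:129738331-129753047), the inducible prostaglandin E synthase, had 15.8, 15.6 and 12.3 CPM with TMP195 and 0.772, 1.56, 0.876 and 0.839 with KDAC7 H709A (log2 fold change 3.85 ± 0.36, adjusted p = 2.86e-05). The lowest TMP195 library was above the highest variant library, and the KDAC4 variants took both sides, with 0.219 to 0.950 CPM in KDAC4 H803A and 27.4 to 45.5 CPM in KDAC4 H976Y.

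DHRS3, a reductase of retinal, had 11.5, 10.6 and 8.83 CPM with TMP195 and 0.483, 0.954, 0.876 and 1.05 CPM with KDAC7 H709A (log2 fold change 3.58 ± 0.31, adjusted p = 1.70e-05). HMOX1, the heme-degrading oxygenase, had 37.7, 38.2 and 28.8 CPM against 5.89, 6.77, 7.32 and 8.85 CPM (log2 fold change 2.27 ± 0.27, adjusted p = 0.000173). PORCN, which acylates Wnt ligands for their secretion, had 39.4, 38.4 and 31.2 CPM against 11.7, 14.8, 10.8 and 7.76 CPM (log2 fold change 1.69 ± 0.22, adjusted p = 0.000348). Each of these genes separated the groups with no overlap, which the rule for naming them required. TXNIP, an inhibitor of thioredoxin and of glucose uptake, had 73.8, 69.2 and 55.0 CPM against 14.7, 22.3, 26.0 and 23.7 CPM (log2 fold change 1.61 ± 0.21, adjusted p = 0.000487). FAH, of tyrosine breakdown, had 61.1, 67.8 and 55.7 CPM against 25, 27.7, 23.7 and 21.1 CPM (log2 fold change 1.34 ± 0.18, adjusted p = 0.000479). In KDAC4 H976Y, PORCN stood at 36.6 to 44.5 CPM, TXNIP at 47.6 to 64.1 CPM and FAH at 37.9 to 58.9 CPM. These ranges overlap those of the treated cells, while DHRS3 (4.44 to 5.91 CPM) and HMOX1 (8.65 to 19.8 CPM) lay below the treated cells there.

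Some transcripts had no count in any KDAC7 H709A library. The small Cajal body RNA SCARNA10 had 17.2, 25.3 and 29.2 CPM with TMP195, at least 491-fold higher when 3 counts are set over the whole KDAC7 H709A group (adjusted p = 1.66e-05). The pseudogene BZW1P2 had 16.6, 17.8 and 9.43 CPM, at least 304-fold higher (adjusted p = 2.86e-05), and sharing of reads with its parent gene was not tested. ADAMTS2, a protease that trims procollagen, had 9.46, 10.9 and 8.96 CPM, at least 202-fold higher (adjusted p = 0.000565). All of these were also at 0 or near it in KDAC4 H803A, at no more than 0.0969 CPM. In KDAC4 H976Y, SCARNA10 had 12 to 20 CPM and BZW1P2 35.4 to 65.7 CPM, while ADAMTS2 was at 0 there too.

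**Figure D2:**
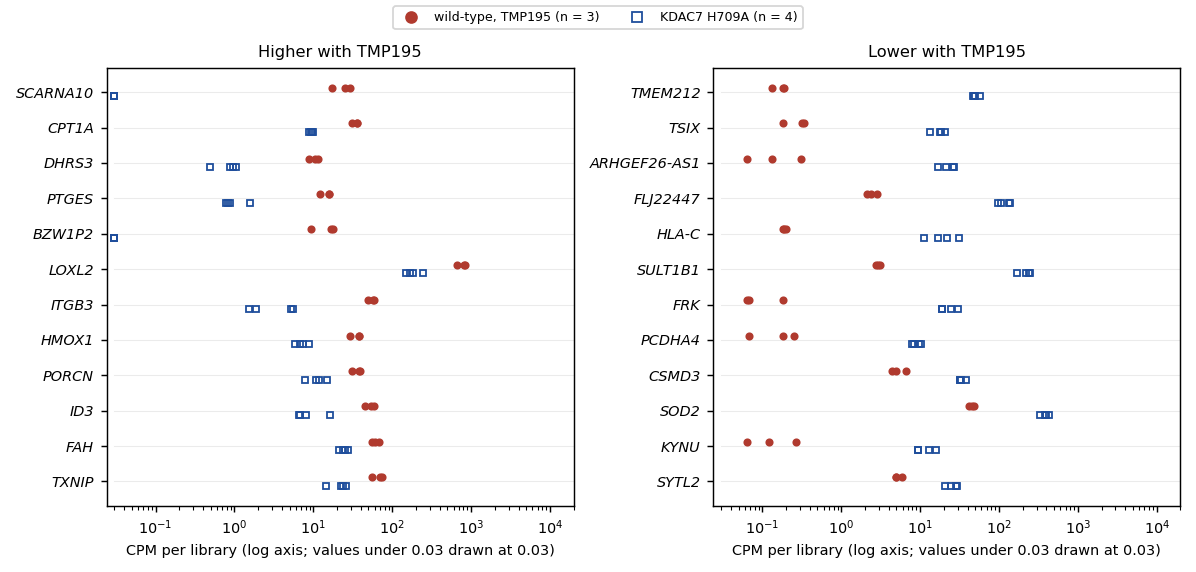
Levels in CPM on a log axis for the 12 genes with the smallest p-values higher with TMP195 (left) and the 12 lower (right), by the stated rule. Red circles are the 3 TMP195 libraries and open blue squares the 4 KDAC7 H709A libraries; values under 0.03 are drawn at 0.03. The rule admits only genes whose groups do not overlap, so the gap in each is required by the choice. CPT1A, for example, lies at 31.3 to 35.5 against 8.85 to 9.95 CPM.

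The genes lower with TMP195 included several that were nearly silent in the treated cells. TMEM212 (ENSG00000186329, chr3:171843349-171938715), a membrane protein gene, had 0.190, 0.183 and 0.134 CPM with TMP195 and 49.2, 57.0, 48.5 and 46.5 CPM with KDAC7 H709A (log2 fold change -8.13 ± 0.51, adjusted p = 2.51e-06). FRK (ENSG00000111816, chr6:115931149-116060758), a Src-related tyrosine kinase, had 0.0635, 0.183 and 0.0669 CPM against 24.5, 29.9, 19.0 and 19.2 CPM (log2 fold change -7.64 ± 0.60, adjusted p = 8.40e-06). SULT1B1 (ENSG00000173597, chr4:69721162-69787961), a sulfotransferase, had 2.92, 2.75 and 3.08 CPM against 243, 251, 221 and 167 CPM (log2 fold change -6.24 ± 0.46, adjusted p = 4.81e-06). The 4 variant libraries were close to each other, and no treated library approached them. The untreated KDAC4 variants stood near KDAC7 H709A as well, with TMEM212 at 37.4 to 50.8 CPM in KDAC4 H803A and 34.6 to 108 CPM in KDAC4 H976Y. Without TMP195 replicate 2 the log2 fold change of FRK was -8.27 (adjusted p = 0.000119). FRK stood in the KDAC4 variants at 17.4 to 29.9 and 13.6 to 39.5 CPM, and SULT1B1 at 161 to 217 and 98.1 to 327 CPM.

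SOD2 (ENSG00000112096, chr6:159669057-159745186), the mitochondrial superoxide dismutase, had 47.7, 45.7 and 41.9 CPM with TMP195 and 384, 438, 397 and 336 CPM with KDAC7 H709A (log2 fold change -3.11 ± 0.27, adjusted p = 1.68e-05). KYNU, kynureninase of tryptophan breakdown, had 0.0635, 0.122 and 0.267 CPM against 15.9, 12.9, 9.39 and 9.48 CPM (log2 fold change -6.22 ± 0.54, adjusted p = 1.68e-05). SYTL2, a synaptotagmin-like protein of vesicle traffic, had 5.97, 4.88 and 5.02 CPM against 20.7, 25, 28.4 and 29.6 CPM (log2 fold change -2.29 ± 0.20, adjusted p = 1.73e-05). Without TMP195 replicate 3 the log2 fold change of KYNU was -6.85 (adjusted p = 0.000124). For SOD2 both KDAC4 variants lay nearer KDAC7 H709A than the treated cells, with 302 to 352 CPM in KDAC4 H803A and 209 to 437 CPM in KDAC4 H976Y. CSMD3, which encodes a large transmembrane protein, fell from 37.7, 32.2, 33.5 and 32.5 CPM to 4.95, 4.46 and 6.69 CPM (log2 fold change -2.66 ± 0.22, adjusted p = 1.40e-05). In KDAC4 H976Y, SYTL2 had 14.3 to 18.7 CPM and CSMD3 15.6 to 23.5 CPM, between the treated cells and KDAC7 H709A. In KDAC4 H803A they had 24.9 to 31.0 and 28.5 to 36.0 CPM. PCDHA4, a clustered protocadherin that shares its last exons with others of its cluster, fell to 0.254, 0.183 and 0.0669 CPM from 9.65, 10.2, 8.33 and 7.88 CPM (log2 fold change -5.65 ± 0.47, adjusted p = 1.18e-05).

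Noncoding transcripts stood among the lower genes too. TSIX, antisense to XIST, was lower (log2 fold change -5.95 ± 0.38, adjusted p = 2.51e-06), with 0.183 to 0.334 CPM against 13.5 to 20.8 CPM. ARHGEF26-AS1 (log2 fold change -7.00 ± 0.46, adjusted p = 2.51e-06) and FLJ22447 (log2 fold change -5.59 ± 0.37, adjusted p = 2.51e-06) were lower too, with a log2 fold change of -7.74 for ARHGEF26-AS1 without TMP195 replicate 2 (adjusted p = 7.01e-05). The use of strand in counting is not given in the sources used here, so antisense reads and those of an overlapping gene cannot be told apart. The unnamed transcripts RP11-10O22.1, AP000476.1 and CTD-2626G11.2 had no count in any TMP195 library and were at least 148-fold, 129-fold and 93.6-fold lower (adjusted p = 1.78e-05, 6.91e-05 and 1.18e-05). Long intergenic noncoding RNAs were called lower in 120 of 910 cases (13.2%) and higher in 14, while protein-coding genes were called lower in 471 of 13300 cases (3.54%) and higher in 240. Calls also differed with base composition. Of the 4411 GC-poorest genes 7.39% were lower, 0.453% were higher and the median log2 fold change was -0.59, and of the 4411 GC-richest 1.66% were lower, 2.43% were higher and the median was 0.15. With offsets for GC content and length, 800 of the 1119 calls remained and 1192 genes were called, 417 higher and 775 lower. In 8 of the 1119 the fold change took the opposite sign with these offsets.

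Sterol and fatty acid synthesis was the list with the most calls. Cells make cholesterol from acetyl-CoA through mevalonate, and SREBP2, the product of SREBF2, drives these genes when membrane sterol is low. Of the 28 members tested, 16 fell and 0 rose, and 27 had a negative log2 fold change. The median was -1.38, against -0.07 over all genes and 4.31% of them called lower. The groups did not overlap in 23 members, against 24.3% of all genes tested. SC5D, INSIG1 and CYP51A1, at larger fold changes than many called members, did not pass. Without KDAC7 H709A replicates 1 and 4 there were 18 lower and 1 higher, and with offsets for GC content and length 17 lower and 0 higher. With same-numbered samples as a block there were 9 lower and 0 higher. Without TMP195 replicate 1, 2 or 3 there were 3, 2 and 3 lower, and 12, 13 and 14 without KDAC7 H709A replicate 2, 3 or 4.

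Upstream in the pathway, HMGCS1 (ENSG00000112972, chr5:43289395-43313512), the synthase of HMG-CoA, had 19.2, 17.7 and 17.6 CPM with TMP195 and 57.2, 123, 206 and 159 CPM with KDAC7 H709A. Treated libraries were alike and the variant libraries spread several-fold, with replicate 1 lowest (log2 fold change -2.91 ± 0.56, adjusted p = 0.00758; 0.0508 to 0.0524 without TMP195 replicate 2 or 3). The mevalonate kinase MVK had 11.9, 13.6 and 13.0 CPM against 35.1, 27.0, 31.8 and 20 CPM (log2 fold change -1.15 ± 0.20, adjusted p = 0.00368). MVD, the decarboxylase that follows it, had 10.7, 9.83 and 14.0 CPM against 70.7, 37.6, 37.9 and 22.1 CPM (log2 fold change -1.86 ± 0.36, adjusted p = 0.0082; 0.0507 to 0.0555 without TMP195 replicate 1 or 2). MVK and MVD had their highest value in KDAC7 H709A replicate 1, where HMGCS1 had its lowest. The isomerase IDI1 (log2 fold change -2.40 ± 0.50, adjusted p = 0.0116; 0.0555 to 0.0786 without any 1 TMP195 library) and the prenyl synthase FDPS (log2 fold change -0.93 ± 0.19, adjusted p = 0.0101; 0.0579 to 0.0731 likewise) fell as well.

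Past squalene, LSS (ENSG00000160285, chr21:46188141-46228824), which closes the sterol rings, had 34.7, 46.7 and 40.7 CPM against 199, 175, 165 and 113 CPM. Every variant library was more than 2-fold above every treated one (log2 fold change -2.0 ± 0.20, adjusted p = 5.22e-05), and LSS and MVK kept their calls under every alternative run. SQLE, the squalene epoxidase, had 27.4, 27.5 and 19.5 CPM against 34.3, 85.0, 131 and 118 CPM (log2 fold change -1.89 ± 0.52, adjusted p = 0.0460; 0.0781 to 0.190 without 1 TMP195 library or without KDAC7 H709A replicate 2, 3 or 4). The demethylation enzyme MSMO1 (log2 fold change -2.70 ± 0.58, adjusted p = 0.0145; 0.0717 to 0.0835 without any 1 TMP195 library) fell, as did the reductase DHCR7 (-1.60 ± 0.36, adjusted p = 0.0189; 0.0722 to 0.113 likewise and 0.0514 with GC and length offsets). The sterol carrier STARD4 was lower (log2 fold change -2.67 ± 0.66, adjusted p = 0.030; 0.0515 to 0.132 without 1 TMP195 library or without KDAC7 H709A replicate 2, 3 or 4). In fatty acid synthesis, SCD, the desaturase, had 173, 179 and 142 CPM against 327, 1386, 1604 and 1115 CPM (log2 fold change -2.75 ± 0.61, adjusted p = 0.0184; 0.0882 to 0.100 without any 1 TMP195 library). FASN, the fatty acid synthase, had 521, 522 and 482 CPM against 1394, 1190, 1118 and 682 CPM (log2 fold change -1.11 ± 0.26, adjusted p = 0.0212; 0.0536 to 0.103 without 1 TMP195 library or KDAC7 H709A replicate 2).

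**Figure D3:**
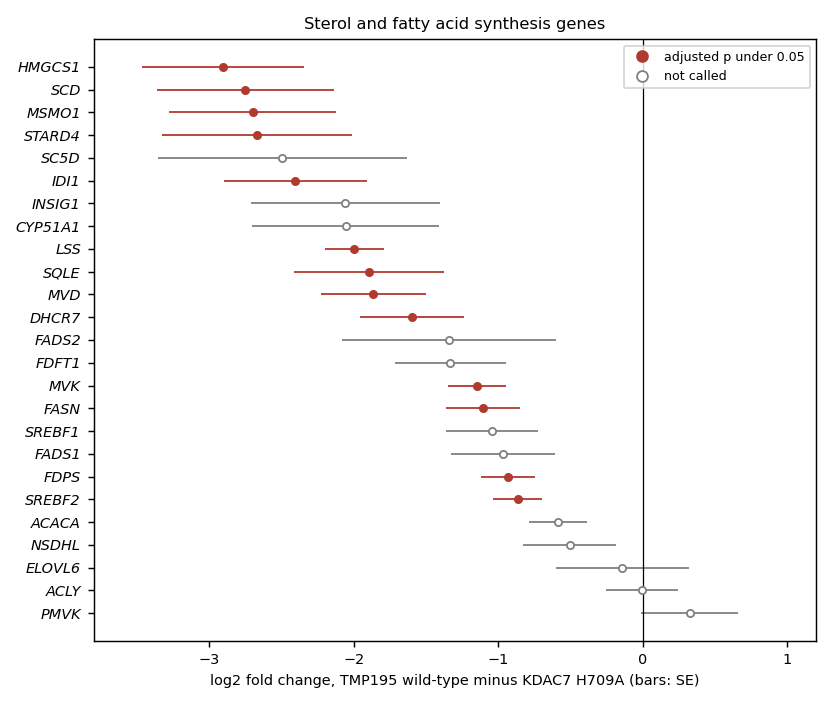
Log2 fold change, TMP195 minus KDAC7 H709A, of 25 tested sterol and fatty acid synthesis genes, with SE bars. Filled red points are called genes (13) and open points are not called; 24 of 25 points lie below 0.

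SREBF2 itself had 183, 188 and 173 CPM with TMP195 and 299, 403, 351 and 271 CPM with KDAC7 H709A. No variant library reached down to the treated ones (log2 fold change -0.87 ± 0.17, adjusted p = 0.00901; 0.0502 to 0.0649 without any 1 TMP195 library). Promoters were searched for TCACNCCAC on both strands in the 250 bases before each RefSeq start (GRCh38.p14), as 1 spelling of the element that sterol-regulated factors bind. It was found in 1 of 31 promoters of the tested members (22 of 28 genes matched), in 0.883% of all 35116 promoters and in 0.872% of those of all genes tested. That 1 promoter belongs to SREBF2, at chr22:41832855-41833104 on the plus strand. It is shown with the match, which begins 133 bases before the start, in capitals.
SREBF2: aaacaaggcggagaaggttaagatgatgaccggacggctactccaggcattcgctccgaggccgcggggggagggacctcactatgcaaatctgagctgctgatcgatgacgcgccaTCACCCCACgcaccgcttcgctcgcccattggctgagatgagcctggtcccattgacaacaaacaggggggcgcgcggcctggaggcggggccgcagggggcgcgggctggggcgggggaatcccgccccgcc

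Calls on the list of amino acid shortage and protein folding stress were all in the higher direction. Its genes are induced through ATF4 and related factors when amino acids are short or proteins misfold. Of 29 members tested, 7 rose and 0 fell, and 25 had a positive fold change. The median log2 fold change was 0.37, and 1.99% of all genes were called higher. Without KDAC7 H709A replicates 1 and 4 there were 5 higher, and 4, 3 and 5 without TMP195 replicate 1, 2 or 3. STC2, a secreted stanniocalcin, had 253, 269 and 265 CPM with TMP195 and 112, 70.4, 67.7 and 131 CPM with KDAC7 H709A (log2 fold change 1.46 ± 0.21, adjusted p = 0.00101). PCK2, the mitochondrial carboxykinase, had 117, 134 and 108 CPM against 54.8, 51.3, 51.7 and 52.7 CPM (log2 fold change 1.18 ± 0.21, adjusted p = 0.00379; 0.111 with GC and length offsets). The treated libraries were about 2-fold above the KDAC7 H709A ones, which were close to each other. In KDAC4 H976Y, STC2 had 235 to 255 and PCK2 43.3 to 58.9 CPM. In KDAC4 H803A they had 113 to 132 and 51.6 to 100 CPM.

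The amino acid transporter pair of SLC3A2 and SLC7A5 rose together. SLC3A2 had 338, 369 and 350 CPM against 193, 152, 153 and 133 CPM (log2 fold change 1.16 ± 0.23, adjusted p = 0.00878, and 0.0530 with same-numbered samples as a block). SLC7A5 had 1005, 1017 and 836 CPM against 314, 530, 547 and 405 CPM (log2 fold change 1.09 ± 0.22, adjusted p = 0.0109; 0.0636 to 0.0641 without TMP195 replicate 1 or 2). Neither gene's groups overlapped. CHAC1, which breaks down glutathione, had 40.6, 45.8 and 37.8 CPM against 17.6, 10.8, 19.0 and 12.6 CPM (log2 fold change 1.47 ± 0.29, adjusted p = 0.00903; 0.0514 without TMP195 replicate 2). The pseudokinase TRIB3 (log2 fold change 0.94 ± 0.26, adjusted p = 0.0474; 0.0639 to 0.178) and the serine synthesis enzyme PHGDH (log2 fold change 0.67 ± 0.18, adjusted p = 0.0458; 0.0944 to 0.209) rose narrowly, and the ranges hold without 1 TMP195 library or without KDAC7 H709A replicate 2, 3 or 4. The offsets for GC content and length also ended the calls of SLC7A5, TRIB3 and PHGDH (adjusted p = 0.313, 0.201 and 0.0898), and so did leaving out KDAC7 H709A replicates 1 and 4 (adjusted p = 0.0503, 0.131 and 0.070). The motif TGATGNAA, a spelling of the amino acid response element, was found on either strand in 4 of 35 promoters of the tested members (25 genes matched). It was in 3.14% of all promoters and in 1.835% of those of all genes tested. Among promoters of called members it was in 1 of 11. The 4 promoters belong to ATF3, ASNS, HERPUD1 and CHAC1, of which CHAC1 was called. Its promoter, chr15:40953221-40953470 on the plus strand of GRCh38.p14, is shown with the match, on the opposite strand and beginning 209 bases before the start, in capitals.
CHAC1: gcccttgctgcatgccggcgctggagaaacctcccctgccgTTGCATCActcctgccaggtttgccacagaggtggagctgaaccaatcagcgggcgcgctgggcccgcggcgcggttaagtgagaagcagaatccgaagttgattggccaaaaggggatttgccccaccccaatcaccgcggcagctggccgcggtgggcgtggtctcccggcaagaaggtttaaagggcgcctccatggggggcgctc

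**Figure D4:**
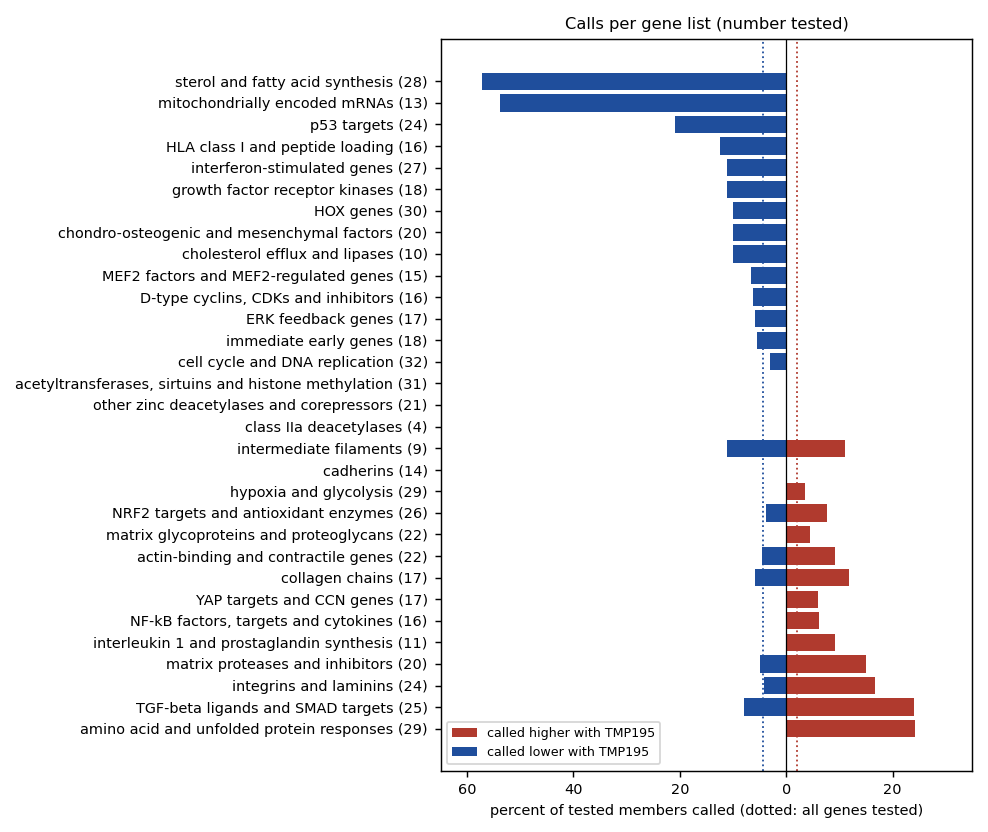
Percent of the tested members of each gene list called higher (red, right) or lower (blue, left) with TMP195; the number tested stands beside each name, and dotted lines mark all genes tested (1.99% higher, 4.31% lower). Sterol and fatty acid synthesis (16 of 28 lower) extends farthest to the left, and the amino acid and TGF-beta lists (7 of 29 and 6 of 25 higher) farthest to the right.

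Matrix, adhesion and TGF-beta genes had members called in both directions. TGF-beta family ligands signal through SMAD factors to genes of matrix and growth control. Of 25 ligands and SMAD targets 6 rose and 2 fell, against 1.99% and 4.31% of all genes, with a median log2 fold change of -0.03. Without KDAC7 H709A replicates 1 and 4 the counts were also 6 and 2. Without any 1 TMP195 library 2 rose and 1 fell. ID3, a dominant inhibitor of helix-loop-helix factors, had 53.9, 58.5 and 45.5 CPM against 16.3, 6.68, 6.51 and 8.18 CPM (log2 fold change 2.49 ± 0.33, adjusted p = 0.000431). Its relative ID1 had 75.7, 87.7 and 69.0 CPM against 40.7, 14.5, 19.5 and 14.5 CPM (log2 fold change 1.80 ± 0.41, adjusted p = 0.0205; 0.0552 to 0.0878 without 1 TMP195 library or without KDAC7 H709A replicate 2, 3 or 4). Both ID genes had their highest variant value in replicate 1, and both were still lower there than in any treated library.

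The signal transducer SMAD3 (log2 fold change 0.87 ± 0.22, adjusted p = 0.0312; 0.0551 to 0.123) and the inhibitory SMAD6 (log2 fold change 1.56 ± 0.38, adjusted p = 0.0277; 0.0703 to 0.102) rose; their ranges hold without 1 TMP195 library or without KDAC7 H709A replicate 2, 3 or 4. The ligand BMP6 rose (log2 fold change 1.24 ± 0.27, adjusted p = 0.0178; 0.0672 to 0.0880 without any 1 TMP195 library), while the ligand antagonists fell. NOG, which binds BMPs, had 9.46, 12.1 and 9.76 CPM against 22.6, 36.9, 29.6 and 20.6 CPM (log2 fold change -1.39 ± 0.25, adjusted p = 0.00495). FST, which binds activins, was lower too (log2 fold change -1.67 ± 0.39, adjusted p = 0.0241; 0.0609 to 0.119 without 1 TMP195 library or KDAC7 H709A replicate 4). With GC and length offsets SMAD3 and BMP6 did not pass (adjusted p = 0.0674 and 0.129), and without KDAC7 H709A replicates 1 and 4 BMP6 and FST did not (adjusted p = 0.065 and 0.105).

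Of 24 integrins and laminins, which anchor cells to matrix, 4 rose and 1 fell (median log2 fold change -0.26), against 1.99% and 4.31% of all genes. ITGB3 (ENSG00000259207, chr17:47253846-47311816), of the vitronectin receptor, had 57.8, 59.2 and 50 CPM with TMP195 and 1.54, 5.55, 5.26 and 1.89 CPM with KDAC7 H709A (log2 fold change 3.97 ± 0.42, adjusted p = 7.49e-05). ITGA11 (ENSG00000137809, chr15:68296533-68432162), a collagen-binding subunit, had 76.3, 72.2 and 62.3 CPM against 5.12, 16.5, 7.45 and 2.56 CPM (log2 fold change 3.16 ± 0.44, adjusted p = 0.000604). The KDAC7 H709A libraries differed among themselves by several-fold in both genes, and none came near a treated library. In KDAC4 H976Y, ITGB3 had 16.3 to 26.0 and ITGA11 88.9 to 97.0 CPM. In KDAC4 H803A they had 0.872 to 2.08 and 2.09 to 2.71 CPM. The log2 fold changes of ITGB3 and ITGA11 were 3.32 and 2.52 without KDAC7 H709A replicates 1 and 4 (adjusted p = 9.94e-05 and 0.000375), and that of ITGA11 was 3.81 without replicate 2 (adjusted p = 5e-05). ITGB8, whose integrin activates latent TGF-beta, fell, with 1.14, 0.916 and 0.802 CPM against 8.49, 14.1, 12.4 and 21.2 CPM (log2 fold change -3.87 ± 0.51, adjusted p = 0.000431). The laminin chain LAMA3 (log2 fold change 1.13 ± 0.19, adjusted p = 0.00295) and the subunit ITGA3 (log2 fold change 0.91 ± 0.19, adjusted p = 0.0142; 0.0727 to 0.0742 without TMP195 replicate 1 or 2 and 0.244 with GC and length offsets) rose.

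Of 17 collagen chains 2 rose and 1 fell, and 5 rose and 1 fell without KDAC7 H709A replicates 1 and 4. Beside these and the matrix lists below, 1.99% of all genes rose and 4.31% fell over all libraries. COL6A3 (ENSG00000163359, chr2:237324003-237414375), of the microfibrillar collagen, had 5865, 5929 and 5488 CPM against 1186, 2060, 2127 and 1115 CPM (log2 fold change 1.83 ± 0.27, adjusted p = 0.000984). COL1A2 had 1.90, 1.28 and 1.74 CPM and no count in KDAC7 H709A, at least 33.6-fold higher (adjusted p = 0.00023). In KDAC4 H976Y, COL6A3 had 2334 to 3189 and COL1A2 2.53 to 3.08 CPM. In KDAC4 H803A they had 1104 to 1729 and 0 to 0.0633 CPM. COL8A1 fell (log2 fold change -1.99 ± 0.30, adjusted p = 0.00122). LOXL2, which crosslinks collagen, had 808, 837 and 668 CPM against 248, 166, 150 and 186 CPM (log2 fold change 2.04 ± 0.21, adjusted p = 5.44e-05). Basement membrane perlecan, HSPG2, was the 1 called gene of 22 matrix glycoproteins and proteoglycans (log2 fold change 1.70 ± 0.38, adjusted p = 0.0182; 0.0513 to 0.0699 without 1 TMP195 library or without KDAC7 H709A replicate 2, 3 or 4). Of 20 matrix proteases and inhibitors 3 rose and 1 fell. Among those that rose was the membrane protease MMP14 (log2 fold change 0.71 ± 0.18, adjusted p = 0.0388; 0.0895 to 0.179 without 1 TMP195 library or KDAC7 H709A replicate 3 or 4). The urokinase receptor PLAUR rose as well (log2 fold change 0.71 ± 0.18, adjusted p = 0.0372; 0.0963 to 0.180 without 1 TMP195 library or KDAC7 H709A replicate 2 or 3). The MMP14 and PLAUR calls also ended with GC and length offsets (adjusted p = 0.558 and 0.530), and MMP14's without KDAC7 H709A replicates 1 and 4 (adjusted p = 0.142). SERPINE2 fell at the threshold (log2 fold change -1.75 ± 0.49, adjusted p = 0.0498; 0.0939 to 0.187 without 1 TMP195 library or without KDAC7 H709A replicate 2, 3 or 4).

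**Figure D5:**
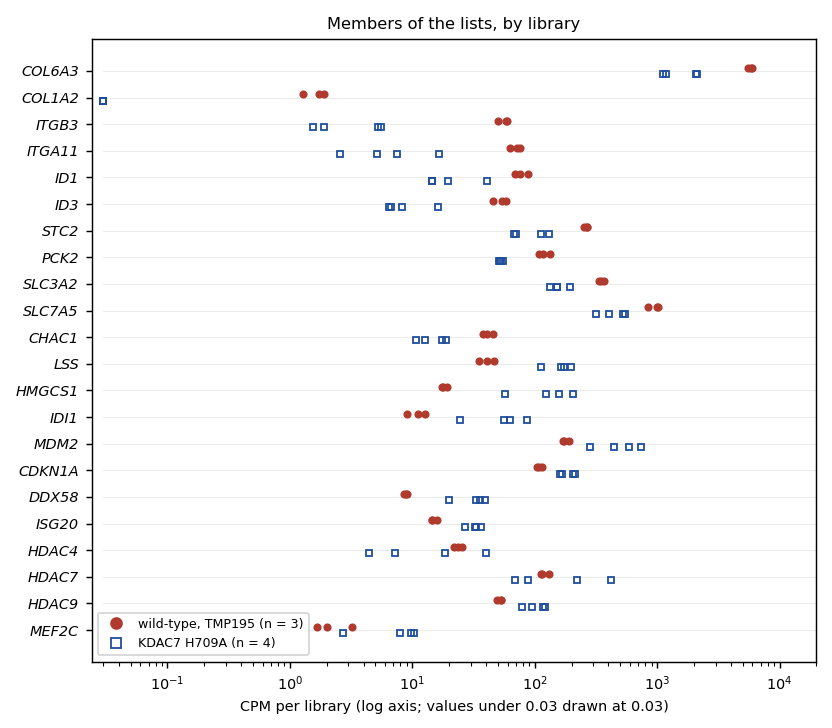
Levels in CPM on a log axis of 22 list members, ordered as matrix and TGF-beta, amino acid response, sterol, p53, interferon and class IIa or MEF2 genes. Red circles are the 3 TMP195 libraries and open blue squares the 4 KDAC7 H709A libraries; values under 0.03 are drawn at 0.03. HDAC4 and HDAC7 squares spread to both sides of the circles, from 4.44 to 40.1 and from 68.5 to 422 CPM, while LSS and ITGB3 are apart.

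Mitochondrially encoded mRNAs, which code for subunits of the respiratory chain, were lower with TMP195. Of 13 tested, 7 fell and 0 rose, with a median log2 fold change of -1.89. The groups did not overlap in 12, and over all genes tested 4.31% fell and 24.3% did not overlap. Together these mRNAs made up 2.98%, 2.38% and 2.80% of the counts with TMP195 and 11.8%, 4.65%, 3.72% and 7.99% with KDAC7 H709A. Their share was 6.45% to 14.7% in KDAC4 H803A and 0.676% to 1.41% in KDAC4 H976Y. MT-ND2 of complex I had 1364, 1046 and 1188 CPM against 9048, 4401, 3530 and 7410 CPM (log2 fold change -2.35 ± 0.46, adjusted p = 0.00878; 0.0513 to 0.0583 without TMP195 replicate 2 or 3). MT-ND3 of the same complex was lower too (log2 fold change -2.42 ± 0.48, adjusted p = 0.00916; 0.0544 to 0.0612 without TMP195 replicate 2 or 3). MT-ATP8, of ATP synthase, had 50.9, 46.6 and 48.0 CPM against 344, 227, 142 and 742 CPM (log2 fold change -2.91 ± 0.61, adjusted p = 0.0132; 0.0700 to 0.0751 without any 1 TMP195 library). KDAC7 H709A replicates 1 and 4 were the high libraries, and 3 genes were called without them, as were 3 without replicate 4 alone. Without both, MT-ND3 stood at -1.55 and MT-ATP8 at -1.96 (adjusted p = 0.0356 and 0.043), and without replicate 4 alone MT-ATP8 stood at -2.29 (adjusted p = 0.0257). Without TMP195 replicate 1, 2 or 3 there were 2, 0 and 0 calls. PPARGC1A, a coactivator of mitochondrial genes encoded in the nucleus, had 0.762, 1.16 and 0.936 CPM against 2.12, 10.2, 6.95 and 4.07 CPM (log2 fold change -2.60 ± 0.48, adjusted p = 0.00564), and -3.19 without KDAC7 H709A replicates 1 and 4 (adjusted p = 0.000193).

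p53 targets, induced by DNA damage and other stress, were lower in 5 of 24 cases and higher in 0, with a median log2 fold change of -0.70. Of all genes tested 4.31% were called lower. Without KDAC7 H709A replicates 1 and 4 there were 8 lower, without replicate 1 alone 10 lower and 1 higher, and without any 1 TMP195 library 1 lower. MDM2 (ENSG00000135679, chr12:68808176-68850686), the ubiquitin ligase of p53, had 175, 170 and 191 CPM with TMP195 and 283, 586, 743 and 446 CPM with KDAC7 H709A (log2 fold change -1.52 ± 0.27, adjusted p = 0.00386). CDKN1A, the cell cycle inhibitor p21, had 108, 115 and 104 CPM against 168, 213, 207 and 160 CPM (log2 fold change -0.78 ± 0.19, adjusted p = 0.0326; 0.0763 to 0.140 without 1 TMP195 library or KDAC7 H709A replicate 2 or 3, and 0.0513 with upper-quartile scaling). In both genes all variant libraries were above all treated ones. BTG2, an antiproliferative factor, fell (log2 fold change -1.43 ± 0.28, adjusted p = 0.00877; 0.0508 to 0.0629 without any 1 TMP195 library). TP53INP1 (log2 fold change -1.67 ± 0.35, adjusted p = 0.0123; 0.0524 to 0.0776 likewise) and the RNA-binding ZMAT3 (log2 fold change -1.58 ± 0.40, adjusted p = 0.0335; 0.0633 to 0.150 without 1 TMP195 library or without KDAC7 H709A replicate 2, 3 or 4) fell too. Of 32 cell cycle and replication genes, CENPE, a mitotic motor, was the 1 called (log2 fold change -1.61 ± 0.44, adjusted p = 0.0452; 0.0502 to 0.179 without 1 TMP195 library or KDAC7 H709A replicate 3 or 4, 0.163 with GC and length offsets, and 0.132 without KDAC7 H709A replicates 1 and 4).

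Of 27 interferon-stimulated genes 3 were lower and 0 higher, with a median log2 fold change of -0.80. The groups did not overlap in 13 of them, against 24.3% of all genes tested, of which 4.31% were called lower. DDX58, the cytosolic RNA sensor RIG-I, had 8.51, 9.10 and 8.83 CPM against 20, 35.6, 39.4 and 33.2 CPM (log2 fold change -1.86 ± 0.29, adjusted p = 0.00148). The exonuclease ISG20 had 14.4, 16.0 and 14.4 CPM against 32.8, 36.5, 32.9 and 27.1 CPM (log2 fold change -1.11 ± 0.19, adjusted p = 0.00307). IFI6 was lower at low levels (log2 fold change -1.79 ± 0.42, adjusted p = 0.0236; 0.0583 to 0.126 without 1 TMP195 library or KDAC7 H709A replicate 2). Without KDAC7 H709A replicates 1 and 4 the list had 6 lower. Of 16 genes of HLA class I and peptide loading, which present peptides to T cells, 2 fell and 0 rose. Among them HLA-C (ENSG00000204525, chr6:31268749-31272130) had 0.190, 0.183 and 0.201 CPM with TMP195 and 11.1, 31.2, 22.3 and 17.1 CPM with KDAC7 H709A (log2 fold change -6.67 ± 0.45, adjusted p = 2.56e-06). HLA genes are similar to each other and vary between alleles, so the split of reads among them is uncertain. KDAC4 H803A and KDAC4 H976Y had HLA-C at 8.99 to 16.1 and 13.2 to 16.8 CPM, with KDAC7 H709A rather than with the treated cells.

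Among the class IIa genes HDAC4, HDAC5, HDAC7 and HDAC9 there were 0 calls of 4 over all libraries, and 1 at an unadjusted p under 0.05. Of all 17780 genes tested, 4040 had an unadjusted p under 0.05. HDAC7 (ENSG00000061273, chr12:47782722-47833132) had 112, 115 and 132 CPM with TMP195 and 422, 88.0, 68.5 and 222 CPM with KDAC7 H709A (log2 fold change -0.74 ± 0.46, adjusted p = 0.369). HDAC4 had 22.0, 23.6 and 25.4 CPM against 40.1, 7.29, 4.44 and 18.5 CPM (log2 fold change 0.43 ± 0.55, adjusted p = 0.684). In both genes the treated libraries were alike, and KDAC7 H709A replicates 1 and 4 stood above replicates 2 and 3. Without those 2 libraries HDAC4 was called higher with TMP195 (log2 fold change 1.98, adjusted p = 0.00579), and HDAC7 turned to 0.58 (adjusted p = 0.0729). A point change need not alter the level of its transcript, so these levels do not check the labels. HDAC9 had 53, 49.3 and 52.6 CPM against 79.4, 94.3, 118 and 121 CPM, with no overlap, and did not pass (log2 fold change -1.0 ± 0.31, adjusted p = 0.0751). It was called without KDAC7 H709A replicate 1 (adjusted p = 0.0356) and with DESeq2 (adjusted p = 0.0156). HDAC5 had a log2 fold change of 0.07 ± 0.22 (adjusted p = 0.874).

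Among 15 genes for MEF2 factors or regulated by them, 1 fell, PPARGC1A, and 0 rose, against 4.31% and 1.99% of all genes. MEF2A had 47.6, 42.4 and 40.1 CPM against 33.7, 74.6, 91.0 and 86.0 CPM (log2 fold change -0.72 ± 0.41, adjusted p = 0.323). MEF2C had 3.24, 2.02 and 1.67 CPM against 2.70, 9.72, 10.3 and 7.88 CPM (log2 fold change -1.73 ± 0.54, adjusted p = 0.0788), and MEF2D a log2 fold change of -0.10 ± 0.16 (adjusted p = 0.762). MEF2C was called lower without KDAC7 H709A replicates 1 and 4 (log2 fold change -2.15, adjusted p = 0.0325), without replicate 1 alone (adjusted p = 0.0176) and with DESeq2 (adjusted p = 0.0139). For MEF2A, KDAC7 H709A replicate 1 lay below the treated libraries and the other replicates lay above them. The MEF2-regulated factors KLF2 (log2 fold change -0.01 ± 0.44, adjusted p = 0.996), KLF4 (-0.79 ± 0.42, adjusted p = 0.292), KLF6 (-0.27 ± 0.19, adjusted p = 0.437) and NR4A1 (0.70 ± 0.59, adjusted p = 0.518) did not pass. Without KDAC7 H709A replicates 1 and 4, KLF2 was called at 1.00 (adjusted p = 0.0408). Neither cyclin CCND1 (log2 fold change -0.09 ± 0.24, adjusted p = 0.849) nor CCND2 (-0.58 ± 0.36, adjusted p = 0.360) passed. Among 21 other zinc deacetylases and corepressor subunits, 31 acetyltransferases, sirtuins and histone methylation genes, and 14 cadherins, there were 0 calls in edgeR's test. At an unadjusted p under 0.05 there were 4, 6 and 5, against 4040 of all 17780 genes tested.

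The remaining lists had few calls, where 1.99% of all genes were called higher and 4.31% lower. In 11 genes of interleukin 1 and prostaglandin synthesis PTGES was the 1 called, and the median log2 fold change was 0.58. In 29 hypoxia and glycolysis genes the enolase ENO2 was the 1 called, while 24 had a positive fold change (median 0.37). ENO2 had a log2 fold change of 1.29 ± 0.26 (adjusted p = 0.0095, and 0.0579 with same-numbered samples as a block). In 26 NRF2 targets and antioxidant enzymes 2 rose, HMOX1 among them, and SOD2 fell. In 16 NF-kB factors, targets and cytokines the adhesion receptor ICAM1, at 2.60, 3.72 and 2.41 CPM against 0.386, 0.0868, 0 and 0.671 CPM, rose (log2 fold change 3.24 ± 0.76, adjusted p = 0.023; 0.0618 to 0.107 without 1 TMP195 library or KDAC7 H709A replicate 2). Its log2 fold change was 4.25 without KDAC7 H709A replicate 4 and 5.89 without replicates 1 and 4. In 17 YAP targets the matricellular WISP1 was the 1 called (log2 fold change 2.61 ± 0.51, adjusted p = 0.00808). In 9 intermediate filament genes the hair keratin KRT81, which has near-identical paralogs, rose (log2 fold change 2.36 ± 0.34, adjusted p = 0.000842) and the neurofilament NEFL fell (log2 fold change -3.26 ± 0.46, adjusted p = 0.000788). In 22 actin-binding and contractile genes TAGLN (log2 fold change 1.88 ± 0.44, adjusted p = 0.0241; 0.0678 to 0.0891 without 1 TMP195 library or KDAC7 H709A replicate 2) and FLNA (log2 fold change 0.71 ± 0.19, adjusted p = 0.0475) rose and ACTA2 fell (log2 fold change -0.89 ± 0.24, adjusted p = 0.0411). The FLNA and ACTA2 calls ended without 1 TMP195 library or without KDAC7 H709A replicate 2, 3 or 4 (adjusted p = 0.0747 to 0.203 and 0.0743 to 0.193), and that of FLNA also with GC and length offsets (0.582) or without KDAC7 H709A replicates 1 and 4 (0.118). Without those 2 libraries TAGLN stood at 2.82 and NEFL at -2.32 (adjusted p = 0.00169 and 0.00129).

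Lists of developmental factors, ERK feedback and receptor kinases had few calls, all lower, where 4.31% of all genes were called lower and 1.99% higher. So few calls do not give a direction for a list. The cartilage regulator SOX9 had 109, 111 and 102 CPM with TMP195 and 219, 289, 273 and 354 CPM with KDAC7 H709A (log2 fold change -1.41 ± 0.22, adjusted p = 0.00187), 1 of 2 lower among 20 chondro-osteogenic and mesenchymal factors. The second was FOXC1 (log2 fold change -0.80 ± 0.19, adjusted p = 0.0274; 0.0511 to 0.149 without 1 TMP195 library or without KDAC7 H709A replicate 2, 3 or 4). SOX9 had 183 to 341 CPM in KDAC4 H803A and 105 to 110 CPM in KDAC4 H976Y. Of 30 HOX genes 3 fell: HOXB7 (log2 fold change -1.36 ± 0.30, adjusted p = 0.0180; 0.0951 to 0.113 without TMP195 replicate 1 or 3), HOXC13 (-1.42 ± 0.36, adjusted p = 0.0345; 0.0565 to 0.157 without 1 TMP195 library or without KDAC7 H709A replicate 2, 3 or 4) and HOXB13. HOXB13 had 0.381, 0.794 and 0.602 CPM against 392, 33.8, 30.2 and 4.03 CPM (log2 fold change -7.57 ± 1.74, adjusted p = 0.0208; 0.100 to 0.109 without any 1 TMP195 library). Its variant levels ran from 4.03 to 392 CPM, with replicate 1 far above the others, and the log2 fold change was -5.22 without replicate 1 and -5.77 without replicates 1 and 4 (adjusted p = 0.0167 and 0.0106). With GC and length offsets FOXC1 and HOXC13 did not pass (adjusted p = 0.0723 and 0.0569), and without KDAC7 H709A replicates 1 and 4 FOXC1 and HOXB7 did not (0.0510 and 0.0505). The ERK phosphatase DUSP5, the 1 called of 17 ERK feedback genes, had 113, 111 and 107 CPM against 204, 188, 198 and 235 CPM (log2 fold change -0.90 ± 0.20, adjusted p = 0.0173; 0.0897 to 0.0983 without any 1 TMP195 library and 0.0546 without KDAC7 H709A replicates 1 and 4). Of 18 genes tested on the list of growth factor receptor kinases 2 fell and 0 rose. These were FRK above, which as a Src-related kinase is not itself a receptor, and KDR at low levels. KDR had a log2 fold change of -2.50 ± 0.55 (adjusted p = 0.0174, and 0.0508 to 0.0994 without any 1 TMP195 library). The ubiquitin ligase MYLIP was the 1 called of 10 cholesterol efflux genes and lipases (log2 fold change -1.14 ± 0.24, adjusted p = 0.0135; 0.0607 to 0.0880 likewise).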

How the data were processed

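The values are expected counts, unscaled, in a single gene table that the authors deposited. Trimmomatic 0.39, Bowtie2 2.4.5, RSEM 1.3.3, DESeq2 1.38.2 and GRCh38 are named without roles, per the submitters' processing notes; annotation and strand setting: not given in the sources used here. The column of KDAC4 H803A replicate 4 was left out: of 7612 single-transcript genes over 1000 bases, 7367 (96.8%) had the transcript length minus 248.86, as effective lengths do. All columns were mapped to a sample.

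Expected counts were rounded. Of 60675 genes, 17780 passed edgeR's filterByExpr (minimum count 10, minimum total 15). The 14 libraries of 4 groups were scaled by TMM and fitted in 1 model without covariates with edgeR 4.0.16 (quasi-likelihood F test, R 4.3.3), common dispersion 0.179. P-values were Benjamini-Hochberg adjusted over all genes tested, and SE is the absolute log2 fold change over the root of F. The fit was also run on simulated counts that were set to vary less than these data, with no outlying library. That run therefore does not show how reliable the calls are here. CPM (per 1e+06 counts) uses scaled library sizes; 1 CPM stands for 4.86 to 23.9 counts. Lower bounds of fold changes set 3 counts over a whole group at 0 and cover counting error only. Coordinates are those of GENCODE 29, counted from 1; promoters are RefSeq's.

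The members and the 37 lists (752 genes) were chosen with earlier results of these data known. Named genes are the 12 higher and 12 lower with the smallest p-values (at least 2-fold, at least 5 CPM in the higher group, no overlap, no clone name), up to 4 called members of each list in each direction, 13 class IIa, MEF2, KLF, NR4A1 and D-cyclin genes, and genes at 0 in 1 group and at least 5 CPM in each library of the other. STARD4, SQLE and other called list members beyond these were named after their values were seen. Some named list members are not reported here. The labels state no pairing of same-numbered samples. The 18 alternatives cover the tool, scaling, filter, samples in the fit, replicate block, GC and length offsets, library weights (limma 3.58.1 voom) and libraries left out, with DESeq2 1.42.0 as the second tool.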

Additional observations from a re-analysis of the deposited data

Results flagged for a closer look

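In the 4 KDAC7 H709A libraries 1 value stood far from the other 3 for 4 of 96 named genes and for 1 of 6 library measures, when the gap to the nearest value is divided by the whole range and set against Dixon's critical value; chance gives this in about 1 group in 20. The ratio was 0.9985 for mitochondrial ribosomal RNA, which took 0.345% of the counts in replicate 1. It was 0.868 for PTGES, where replicate 2 was high at 1.56 CPM, and 0.8301 for ID3, where replicate 1 was high at 16.3 CPM. It was 0.9232 for HOXB13, where replicate 1 was high at 392 CPM, and 0.8526 for MEF2D, where replicate 2 was high at 140 CPM.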

How the results depend on the processing

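The 1119 calls (353 higher, 766 lower) became 2484 (885 and 1599) with DESeq2, 8840 (4151 and 4689) with limma voom and library weights, and 2708 (886 and 1822) without KDAC4 H803A replicate 1. Upper-quartile scaling gave 1284, of them 575 higher, and moved the median of all genes by 0.108. The fit of only these 2 groups gave 833 (247 and 586), and no filter on low counts 880 (231 and 649). Leaving out KDAC7 H709A replicates 1 and 4 gave 1466 (494 and 972). Leaving out 1 library of either group gave 422 to 2755 calls, 105 to 1052 higher and 317 to 1703 lower; without KDAC7 H709A replicates 1 to 4 the counts were 2755, 724, 791 and 767, and without TMP195 replicates 1 to 3 they were 437, 422 and 451. Of 83 named genes with a call, 46 were tested and kept it under all 18 alternatives; 5 (COL1A2, ICAM1, IFI6, KDR and WISP1) were not tested at a minimum count of 50. Of 13 without one, 9 gained it in some alternative. KLF2 turned from -0.01 to 0.88 with voom and 1.00 without KDAC7 H709A replicates 1 and 4.

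Deviations from the group mean correlated at -0.243, 0.034 and -0.265 in same-numbered samples. They are centred within groups of 3 and 4 libraries, so they cannot settle whether same-numbered samples share a culture or batch. With the replicate block 453 genes were called, 105 higher and 348 lower, 452 of them among the 1119. Of the 83 named calls 25 ended with it. TMP195 replicates 1, 2 and 3 correlated best with KDAC7 H709A replicates 4, 3 and 1. At 4.86 to 23.9 counts per CPM, levels under 1 CPM rest on few counts.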
